A study of Mus musculus with 12 samples.

Results

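Cilp Myoc fibroblasts are stromal cells of the mouse mammary gland that carry transcripts of *Cilp*, which encodes the secreted cartilage intermediate layer protein, together with *Myoc*, which encodes the secreted glycoprotein myocilin. They were chosen by unique molecular identifiers (UMIs, each standing for 1 captured transcript). A cell first had to hold at least 20 UMIs of *Col1a1*, *Col1a2* and *Col3a1* summed and none of *Ptprc*, *Pecam1* or *Epcam*, which mark immune, endothelial and epithelial cells. It then had to hold at least 2 UMIs of *Cilp* and at least 2 of *Myoc*, with *Fabp4* under 10, *Gdf10* under 3, no *Tnc*, and not both *Pgr* and *Greb1*. This left 1408 cells of 33709 fibroblasts (4.18%), out of 46257 cells that passed the quality filters and 58620 deposited cell barcodes.

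The samples were 12 single-cell RNA libraries from mammary glands of female C57BL/6J mice aged 43 weeks, with 1 library per group. In 11 of them the ovarian follicles had been depleted with 4-vinylcyclohexene diepoxide (VCD, 160 mg/kg/day for 15 days), a mouse model of the menopausal transition; Intact mice did not receive it. Of these, 9 libraries form a full layout of hormone and diet. The hormone was vehicle, estradiol (E2, 1 µg per animal per day) or E2 with progesterone (P4, 1 mg per animal per day), given for the last 1 week, and the diet held no, low or high polybrominated diphenyl ethers (PBDE). The low diet gave PBDE-47, PBDE-100 and PBDE-153 at 0.05, 0.0028 and 0.0063 mg/kg/day for 20 weeks, and the high diet gave 1, 0.056 and 0.126 mg/kg/day for 1 week, so dose and duration cannot be told apart. The groups were VCD_Vehicle, VCD_E2 and VCD_E2_P4 without PBDE, VCD_Low_PBDE, VCD_Low_E2 and VCD_Low_E2_P4 on the low diet, and VCD_High_PBDE, VCD_High_PBDE_E2 and VCD_High_PBDE_E2_P4 on the high diet. VCD_E2_ICI received E2 and a single dose of the estrogen receptor antagonist ICI (5 mg per animal), and VCD_Vehicle_NormEnv is a VCD group without hormone or PBDE whose environment the labels do not describe further. The number of mice behind a library is not given in the sources used here.

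Fibroblasts build and remodel the extracellular matrix of the gland and send growth factors and chemokines to epithelial and immune cells. *Dpp4* and *Pi16* mark a fibroblast type found in the connective tissue of many organs, while *Fabp4* and lipid genes mark cells near the adipocyte lineage. Cilp binds transforming growth factor beta and insulin-like growth factor 1 in cartilage, and myocilin is best known from the outflow tissue of the eye.

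The libraries held 41737881 to 109224969 UMIs. The Cilp Myoc fibroblasts numbered 33 in VCD_High_PBDE_E2 and 35 in VCD_Vehicle, and 301 at most, in VCD_Low_E2_P4. Summed over these cells, a library gave 635283 to 5536083 UMIs, with a median of 14775 to 26316 UMIs per cell. Levels are given as CPM, the UMIs of a gene per 1000000 UMIs of the summed cells. Pairs of libraries shared 0 to 15 cell barcodes (median 4), and none of the chosen cells shared one with a chosen cell of another library. A code in the deposited names splits the libraries: those of the layout without PBDE, together with Intact and VCD_Low_PBDE, carry one code, and the others carry the second, so the code cannot be told apart from part of the diet. On the low diet the library without hormone carries the first code and those with hormone the second. There the code cannot be told apart from hormone.

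*Cilp*, *Myoc*, *Wisp2*, *Igfbp3* and *Mfap4* are the 5 genes by which these cells were named. The name was given with earlier results of these libraries known. The levels and detection of *Wisp2*, *Igfbp3* and *Mfap4* against other fibroblasts are thus a description and no independent support for the group. In GRCm38 coordinates *Cilp* lies at chr9:65265180-65280605 (+), *Myoc* at chr1:162639155-162649693 (+), *Wisp2* at chr2:163820861-163833146 (+), *Igfbp3* at chr11:7206086-7213923 (-) and *Mfap4* at chr11:61485431-61488900 (+). *Cilp* and *Myoc* chose the cells, so that their level is no result: *Cilp* lay between 715 and 1263 CPM and *Myoc* between 1876 and 5733 CPM. *Wisp2* (CCN5), a secreted protein of the CCN family, stood at 307 CPM in VCD_E2, 377 in VCD_E2_ICI, 380 in VCD_Low_E2_P4, 398 in VCD_High_PBDE_E2_P4, 424 in VCD_E2_P4, 426 in VCD_High_PBDE_E2, 448 in VCD_Low_E2, 460 in VCD_High_PBDE, 478 in Intact, 559 in VCD_Vehicle_NormEnv, 573 in VCD_Low_PBDE and 921 in VCD_Vehicle. All 12 values lay above those of the other fibroblasts of the same libraries, which ran from 36.7 to 233 CPM. *Igfbp3*, a carrier of insulin-like growth factors, ran from 264 CPM in VCD_E2 to 1994 CPM in VCD_E2_ICI, against 90.9 to 414 CPM in the other fibroblasts. *Mfap4*, a glycoprotein of elastic microfibrils, ran from 75.3 CPM in VCD_High_PBDE_E2_P4 to 419 CPM in VCD_E2_P4 and was above the other fibroblasts in 11 of 12 libraries.

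With every cell thinned to 5000 UMIs, *Wisp2* was detected in 58.5% of the Cilp Myoc fibroblasts, in 17.7% of the other fibroblasts and in 5.19% of immune cells, which should lack it and serve as the background. The shares were 51.8%, 21.9% and 5.85% for *Igfbp3* and 32.6%, 9.04% and 2.83% for *Mfap4*. Thinning left out 57 of the chosen cells and 1640 of 7264 immune cells as too shallow. Without thinning the shares were 77.5%, 28.7% and 9.11% for *Wisp2*, 66.8%, 34.1% and 10.0% for *Igfbp3* and 49.7%, 16.1% and 5.55% for *Mfap4*. A typical chosen cell held 43 UMIs of *Myoc*, 12 of *Cilp*, 4 of *Wisp2*, 3 of *Igfbp3* and 0 of *Mfap4* (medians), so that *Wisp2* and *Igfbp3* were seen in most of the cells and *Mfap4* in fewer.

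The threshold cut through a range of cells. The 224 cells whose lower count of *Cilp* and *Myoc* was exactly 2 had *Wisp2* at 267 CPM, *Igfbp3* at 312 CPM and *Mfap4* at 139 CPM. The 878 cells just outside, with a lower count of 1, had 159, 185 and 126 CPM of these genes, and the 1184 cells with at least 3 UMIs of both had 450, 753 and 264 CPM. *Mfap4* was higher, at 438 CPM, in the 1107 fibroblasts with 2 or more *Cilp* UMIs but no *Myoc*, which are outside the rule, and at 6.86 CPM in the 6037 with *Myoc* but no *Cilp*. These values pool the cells of all 12 libraries, which contributed unequal numbers.

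**Figure D1:**
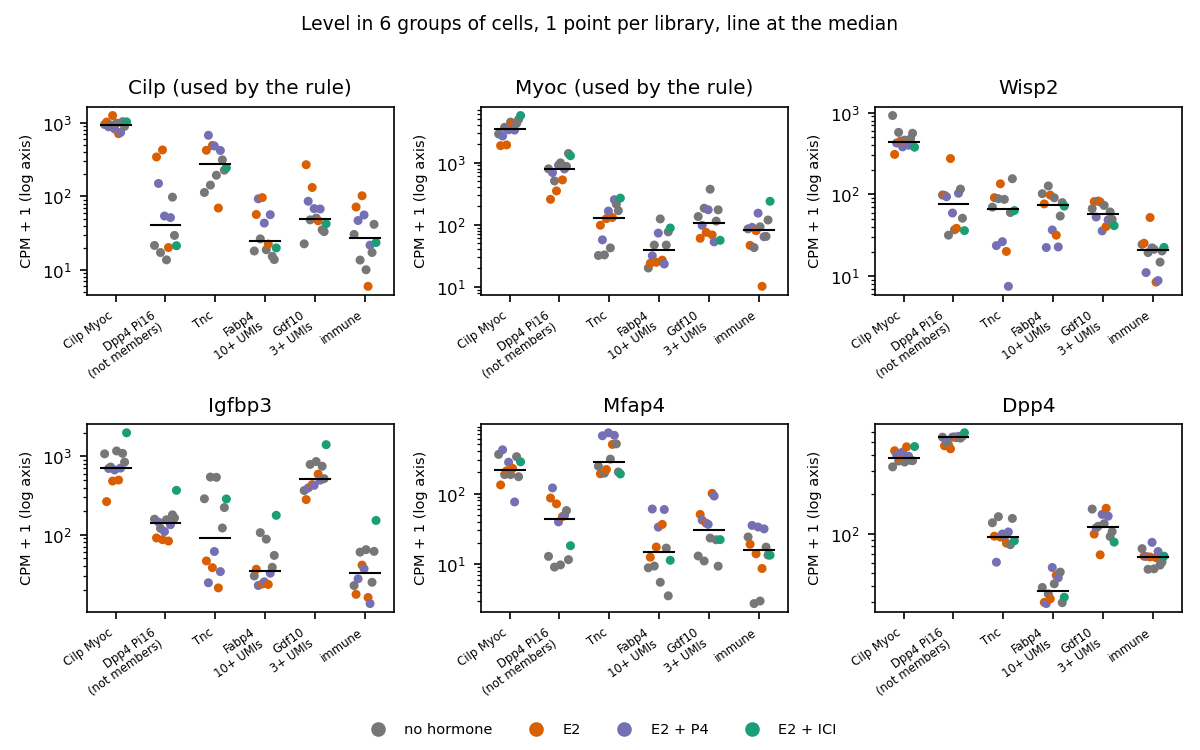
CPM + 1 (log axis) of 6 genes in 6 groups of cells, with 1 point per library colored by hormone and a line at the median of the 12 libraries. *Wisp2* is highest in the Cilp Myoc fibroblasts, *Igfbp3* is also high in fibroblasts with 3 or more *Gdf10* UMIs, *Mfap4* has a higher median in *Tnc* fibroblasts, and *Cilp* and *Myoc* were used by the rule.

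Most Cilp Myoc fibroblasts were at the same time *Dpp4* and *Pi16* cells. Of the 1408, 1097 (77.9%) held at least 2 UMIs of both genes, from 57.1% in VCD_Vehicle to 88.2% in Intact. They were 2.23% to 16.5% of all *Dpp4* *Pi16* fibroblasts of a library. Fibroblasts outside the rule with *Myoc* but no *Cilp* had *Dpp4* at 574 CPM and *Pi16* at 4192 CPM. Those with *Cilp* but no *Myoc* had 190 and 603 CPM. The levels and shares of both genes in the chosen cells are thus not independent of the choice on *Myoc*, and are a description. In cells thinned to 5000 UMIs, *Dpp4* was detected in 77.2% of the chosen cells, 46.7% of other fibroblasts and 16.6% of immune cells. For *Pi16* the shares were 82.2%, 52.55% and 23.8%, so both genes were also detected in immune cells. Whether that is background or expression was not tested. The 1097 cells had *Igfbp3* at 738 CPM and the others at 441 CPM, with the same order in 12 of 12 libraries. *Wisp2* stood at 440 and 337 CPM (10 of 12 libraries) and *Mfap4* at 240 and 278 CPM (6 of 12 libraries). *Dpp4* *Pi16* fibroblasts outside the rule had 88.1 CPM of *Wisp2*, 138 of *Igfbp3* and 46.5 of *Mfap4*, so both kinds of Cilp Myoc fibroblasts were above them. *Prg4*, which encodes lubricin, a lubricant of joint and tendon surfaces, was at 169 CPM in the cells with *Dpp4* and *Pi16*, 83.5 CPM in those without, and 43.8 CPM outside.

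Of the markers of other cell types, those of erythrocytes had the widest range in CPM, at 9.44 to 1014 CPM over 4 genes in the chosen cells and 51.0 to 1305 CPM in the other fibroblasts. The 5 skeletal muscle markers came to 1.33 to 27.5 CPM. Summed over 5 genes each, epithelial markers came to 0 to 8.49 CPM, immune markers to 25.03 to 133 CPM, and pericyte and smooth muscle markers to 4.71 to 32.0 CPM. The 5 endothelial markers came to 13.2 to 44.5 CPM, against 3.95 to 14.4 CPM in the other fibroblasts, so that the ranges overlapped, with *Emcn* at 0 in all 12 libraries and *Kdr*, a receptor for vascular endothelial growth factor, 1.77 ± 0.15 higher on the log2 scale. The 3 adipocyte markers came to at most 0.941 CPM, with *Cidec* at 0. Schwann cell markers (25.9 to 59.8 CPM) and perineurial markers (5.56 to 37.9 CPM) overlapped those of the other fibroblasts (28.5 to 46.4 and 11.0 to 30.4 CPM). The tendon factor *Scx* reached at most 0.944 CPM, *Tnmd* 2.88 CPM, and *Chad* was at 0, whereas the chondrocyte factor *Sox9* stood at 2.78 to 28.0 CPM.

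Compared with all other fibroblasts, the Cilp Myoc fibroblasts had more *Fgf9*, *Angptl1* and *Dkk2* and less *Cldn15*, *Epas1* and *Adam12*. Because the cells were chosen on *Cilp*, *Myoc* and the other genes of the rule, and all *Tnc* cells stayed among the others, the differences are a description of what went with that choice. They are log2 differences from edgeR over sums per library, with their standard errors. *Fgf9*, a fibroblast growth factor, was 14.9-fold higher (log2 difference 3.90 ± 0.31 SE), with 14.3 to 118 CPM in the chosen cells and 0.949 to 4.52 CPM in the others. *Angptl1*, an angiopoietin-like secreted protein, was 8.22-fold higher (3.04 ± 0.11), and *Dkk2*, a secreted Wnt pathway regulator, 7.03-fold higher (2.81 ± 0.13), from 132 to 387 CPM against 19.8 to 51.9 CPM. *Hmcn2* (hemicentin 2, a matrix protein) was 6.43-fold higher, *Ctgf* (CCN2) 5.51-fold, *Clu* (clusterin, an extracellular chaperone) 5.13-fold and *Prg4* 4.54-fold. *Col8a1* (log2 difference 3.00 ± 0.43), *Rrad* (2.72 ± 0.24) and *Emb* (2.21 ± 0.21) complete the 10 called genes with the largest positive differences at a mean of 20 CPM or more, and all 10 were higher in 12 of 12 libraries. This ranking left out the genes of the rule and of the name, mitochondrial genes and genes with Gm or Rik names.

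The 10 largest negative differences among called genes at a mean of 20 CPM or more, with the same genes left out, were led by *Cldn15*, a tight junction claudin (log2 difference -3.19 ± 0.13). Each was lower in 12 of 12 libraries. *Epas1*, which encodes the hypoxia-inducible factor HIF-2α, stood at -2.94 ± 0.14, *Adam12*, a metalloproteinase, at -2.93 ± 0.13, *Vtn* (vitronectin) at -2.79 ± 0.17 and *Sdc1* (syndecan 1) at -2.74 ± 0.09. *Mrgprg*, *Ndufa4l2*, *H2-Q10*, *Krtdap* and *Sparcl1* lay between -2.74 and -2.35. At an adjusted p under 0.05, edgeR called 1859 of 12568 genes higher (14.8%) and 2010 lower (16%), and nothing is read from these shares, since the contrast is the one the cells were chosen on. Over all genes, 48.5% had a positive difference and the median was -0.0071.

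**Figure D2:**
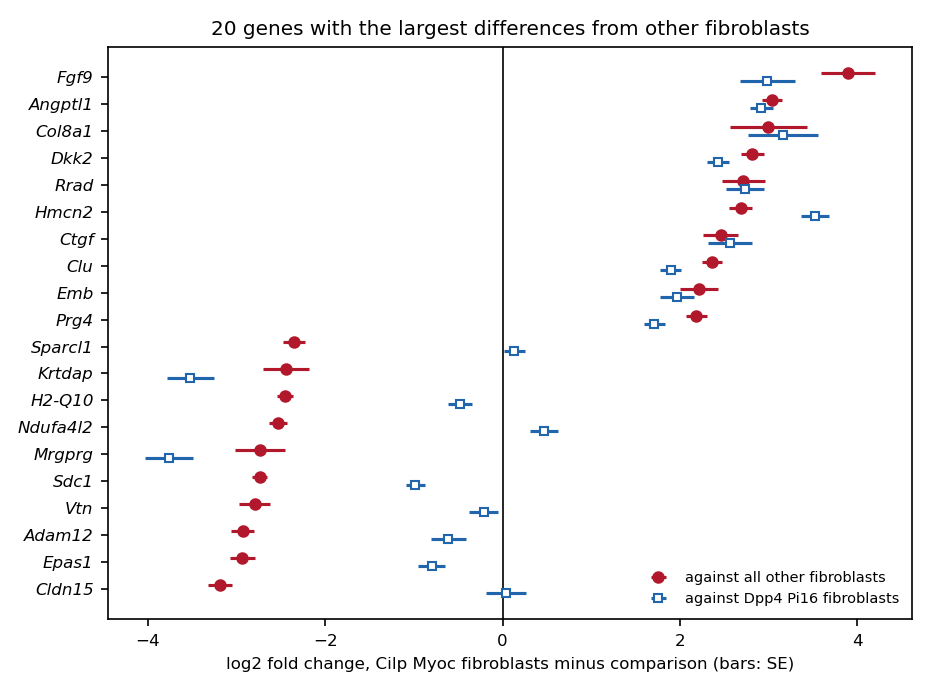
Log2 fold changes with SE of the 20 called genes at a mean of 20 CPM or more that differed most from the other fibroblasts, against all other fibroblasts (filled circles) and against *Dpp4* *Pi16* fibroblasts outside the rule (open squares). Genes of the rule and of the name, mitochondrial genes and genes with Gm or Rik names were left out of the ranking. The 10 genes at the top were higher in both comparisons, whereas *Cldn15* (-3.19), *Ndufa4l2* (-2.54) and *Sparcl1* (-2.35) were lower than the mixture of all other fibroblasts and stood at 0.04, 0.46 and 0.13 against *Dpp4* *Pi16* cells.

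Grouped by function, matrix genes of tendon, fascia and cartilage leaned towards the Cilp Myoc fibroblasts: 11 of 12 measured members had a positive difference, with a median of 0.93. Among them were *Col12a1* (log2 difference 1.93 ± 0.18) and *Col14a1* (0.89 ± 0.06), collagens on the surface of fibrils, *Tnxb* (tenascin X, 0.46 ± 0.03) and *Prg4*. The collagen chains as a whole had 11 of 27 positive, with a median of -0.30. Among the lower chains were *Col4a1* (-1.29 ± 0.08), *Col4a2* (-1.44 ± 0.09) and *Col15a1* (-1.60 ± 0.09). Elastic fibre and microfibril genes had 10 of 18 positive (median 0.08). *Eln* (elastin, 1.20 ± 0.13), *Fbln1* (1.17 ± 0.06), *Fbln2* (1.14 ± 0.05) and the cross-linking enzyme *Lox* (1.03 ± 0.08) were higher in 12 of 12 libraries, and *Efemp1* (-1.09 ± 0.08) was lower in 12 of 12. Small leucine-rich proteoglycans, which space collagen fibrils, had 6 of 10 positive, including *Aspn* (1.29 ± 0.09), *Ogn* (0.73 ± 0.04) and *Bgn* (0.65 ± 0.06), whereas *Lum* stood at -0.78 ± 0.06.

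Among growth factor systems, *Igf1* was 1.69 ± 0.10 higher on the log2 scale and *Pappa2*, a protease of IGF binding proteins, 3.39 ± 0.41, whereas *Igfbp5* lay at -1.22 ± 0.19. The IGF system as a whole had 8 of 13 genes positive (median 0.075). Wnt genes were mixed, with 10 of 19 positive and a median of 0.24. Besides *Dkk2*, the positive ones included *Sfrp4* (1.56 ± 0.13) and *Sfrp2* (1.26 ± 0.12), secreted frizzled-related proteins, and *Wnt5a* (0.70 ± 0.05). Genes of TGF-beta and BMP signalling had 20 of 29 positive (median 0.28): *Tgfbi*, a TGF-beta-induced matrix protein, was at 1.10 ± 0.10, the BMP antagonist *Chrdl1* at 0.93 ± 0.08, and *Bmp7* at -2.34 ± 0.19. *Fgf18* was higher (1.01 ± 0.06), and *Fgf10* (-1.84 ± 0.13) and *Hgf* (-1.92 ± 0.18), paracrine growth factors for epithelium, were lower. *Fgf2* did not differ beyond its error (0.06 ± 0.08).

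Complement genes had 11 of 14 positive (median 0.33), among them *Clu*, *C4b* (0.86 ± 0.06), *C3* (0.74 ± 0.05) and the inhibitor *Serping1* (0.52 ± 0.04). Interferon-induced genes had 36 of 38 positive (median 0.44), with *Ifit3* at 1.31 ± 0.07 and *Bst2* at 0.76 ± 0.06. Adipocyte lineage genes had 1 of 10 positive (median -0.72), with the fatty acid transporter *Cd36* at -3.67 ± 0.25, lipoprotein lipase *Lpl* at -1.39 ± 0.09 and the lipid droplet gene *Plin2* at -1.39 ± 0.09; cells with 10 or more *Fabp4* UMIs had been kept out by the rule. The lists of fibroblast populations follow the study's own clusters, which were built in part on some of these libraries, and are not independent of them. Markers of the *Lpl* population had 1 of 8 positive (median -1.50), and those of the *Postn* population 1 of 8 (median -1.40), with *Postn* itself at -1.19 ± 0.17; since the rule had kept every *Tnc* cell out of the chosen group, nothing is read from the latter. Immediate early and heat shock genes, which respond within minutes to stimulation or tissue handling, had 5 of 24 positive (median -0.20).

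Since most of the cells carry *Dpp4* and *Pi16*, they were also set against *Dpp4* *Pi16* fibroblasts outside the rule, 13326 cells. *Hmcn2* (log2 difference 3.53 ± 0.16), *Fgf9* (2.99 ± 0.31), *Angptl1* (2.92 ± 0.13), *Cpxm2* (2.91 ± 0.25), *Ctgf* (2.56 ± 0.25) and *Dkk2* (2.43 ± 0.12) were higher in 12 of 12 libraries. *Mrgprg* (-3.76 ± 0.27), *Krtdap* (-3.52 ± 0.27) and *Dmkn* (-3.23 ± 0.24), genes known from keratinizing epithelium in the latter 2 cases, and the alarmin *Il33* (-2.33 ± 0.12) were lower in all 12. Among the markers of the *Dpp4* population, 7 of 7 were lower (median -1.34), such as *Cd55* (-1.84 ± 0.13), *Sema3c* (-1.17 ± 0.09) and *Anxa3* (-1.01 ± 0.06). Markers of the *F3* *Gas6* population showed the opposite: 8 of 8 were higher (median 1.51), including *Gas6*, a ligand of TAM receptors (2.40 ± 0.26), and *F3*, tissue factor (2.15 ± 0.21). The cells they were set against had been selected on *Dpp4* and *Pi16*, which not all of the chosen cells carry, so nothing is read from the direction of either list. Collagen chains had 18 of 22 positive here (median 0.34), and *Mgp*, a calcification inhibitor, was at 1.98 ± 0.26. Ribosomal proteins of the large subunit had 0 of 20 positive, by a small median of -0.14. Again as a description, edgeR called 1641 of 11521 genes higher (14.2%) and 1811 lower (15.7%).

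Set against the 1795 *Tnc* fibroblasts, in which *Mfap4* was also high, the Cilp Myoc fibroblasts had more *Prg4* (log2 difference 3.79 ± 0.21), *Clu* (3.79 ± 0.25), *Fgf9* (3.51 ± 0.21), *C3* (2.52 ± 0.10) and *Cxcl13* (2.59 ± 0.21). They had much less *Igfbp2* (-6.93 ± 0.69), *Crabp1* (-6.92 ± 0.26), a retinoic acid binding protein, and *Angpt2* (-6.25 ± 0.23), an angiopoietin. *Mfap4* itself was lower, by -0.57 ± 0.22, in 10 of 12 libraries. Here 2146 of 9349 genes (23%) were called higher and 2333 (25%) lower.

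The share of Cilp Myoc fibroblasts among fibroblasts ran from 1.19% to 8.53% over the 12 libraries, with 1 library per group. It was 1.19% in VCD_Vehicle, 8.53% in VCD_E2 and 6.47% in VCD_E2_P4. On the low PBDE diet it was 1.48%, 7.51% and 5.50% without hormone, with E2 and with E2 and P4. On the high diet it was 3.91%, 1.62% and 3.28%. Hormone libraries were thus 3.73 to 7.15 times above the matching library without hormone at no and low PBDE, and 0.414 and 0.837 times it at high PBDE. At low PBDE the library without hormone and those with it also carry different name codes. Intact had 2.53%, VCD_Vehicle_NormEnv 2.85% and VCD_E2_ICI 4.19%.

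Over the layout, the 6 hormone libraries averaged 5.49% ± 2.61 (SD, n = 6) and the 3 without hormone 2.19% ± 1.50 (SD, n = 3). The difference of 3.29 percentage points did not pass an exact permutation test (two-sided p = 0.119). That test regroups the libraries in 84 ways, without regard to diet. With cells thinned to 5000 UMIs the means were 3.93% and 1.53% (exact permutation p = 0.143), and the order within each diet was the same, with 0.889%, 6.14% and 3.84% without PBDE and 2.72%, 0.953% and 1.89% on the high diet. The conditions for fibroblasts and for the chosen cells were applied again to the thinned counts, so these shares cover a different set of cells. VCD_E2, for example, had 2607 fibroblasts after thinning and 2475 before. *Pgr* and *Greb1* kept out 169 cells that met all other conditions, 107 of them in VCD_Low_E2 (34.2% of the qualifying cells of that library). With these cells kept in, the difference was 4.08 percentage points (exact permutation p = 0.119). Without VCD_High_PBDE, VCD_High_PBDE_E2 or VCD_High_PBDE_E2_P4 it was 4.15, 4.06 and 3.73 percentage points (exact permutation p = 0.0714 in each case), and without each of the other 6 libraries it was 2.68 to 3.29 percentage points (exact permutation p = 0.179 to 0.286). With only 2 libraries without hormone left, 0.0714 is the smallest p this test can give. Leaving out VCD_Vehicle, VCD_Low_PBDE or VCD_High_PBDE could thus not bring it under 0.05, and nothing is read from those p-values.

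**Figure D3:**
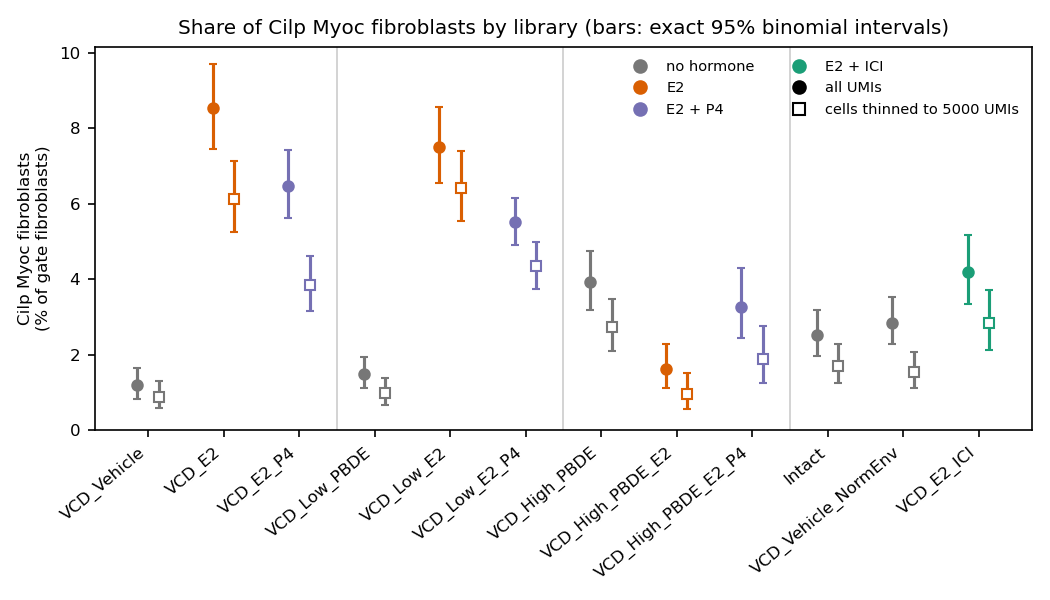
Percent of fibroblasts that met the rule in each library, with all UMIs (filled circles) and with cells thinned to 5000 UMIs (open squares); bars are exact 95% binomial (Clopper-Pearson) intervals and cover counting error only. Hormone libraries reach 5.50% to 8.53% at no and low PBDE and 1.62% and 3.28% at high PBDE.

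A share that rests on 2 UMIs of *Cilp* moves with the level of *Cilp*, so that more such cells and more *Cilp* per cell cannot be told apart. Fibroblasts with at least 2 *Cilp* UMIs made up 6.34% in VCD_Vehicle and 26.8% in VCD_E2, and in fibroblasts that did not meet the rule *Cilp* stood at 25.3 CPM in VCD_Vehicle, 31.5 in VCD_Low_PBDE and 29.1 in VCD_High_PBDE. It stood at 248 CPM in VCD_E2, 185 in VCD_E2_P4, 416 in VCD_Low_E2, 81.4 in VCD_Low_E2_P4, 26.8 in VCD_High_PBDE_E2 and 80.9 in VCD_High_PBDE_E2_P4. *Cilp* outside the rule was thus at the level of the libraries without hormone in VCD_High_PBDE_E2 and above it in the other 5 hormone libraries. *Myoc* in the same cells ran from 148 CPM in VCD_E2 to 766 CPM in VCD_Vehicle_NormEnv and did not follow *Cilp*. Fibroblasts with at least 2 *Myoc* UMIs made up 17.2% in VCD_Vehicle, 21.5% in VCD_Low_PBDE and 34.7% in VCD_High_PBDE. They made up 19.4% to 33.2% in the hormone libraries of the layout. In VCD_Vehicle_NormEnv, which carries the name code of VCD_High_PBDE and no PBDE, they made up 35.1%. The part of *Myoc* in the share was not tested.

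Within the Cilp Myoc fibroblasts, hormone libraries had more interferon-induced transcripts, more of some chemokines and more *Ctla2a*, and fewer transcripts of *Hmcn2*, *Tgfbi* and *Cyp1b1*. The test was edgeR's quasi-likelihood test on sums per library over the 9 libraries, with diet as a covariate, comparing the mean of E2 and E2 with P4 with no hormone, and p-values were adjusted by the Benjamini-Hochberg method over 9141 genes. It called 88 genes higher (0.963%) and 55 lower (0.602%). Of the 88, 82 were higher in both hormone libraries at each diet level, and for 68 the hormone and no-hormone libraries did not overlap (3.98% of all genes tested showed that). Of the 55, 53 were lower in both at each level and 42 did not overlap (4.07% of all genes). The genes were called in these same libraries, so their agreement in direction is no separate check on the calls. Leaving out a library moved the 143 calls to 22 without VCD_Low_PBDE, 37 without VCD_High_PBDE_E2_P4, 47 without VCD_Vehicle, 60 without VCD_Low_E2, 75 without VCD_High_PBDE, 79 without VCD_E2_P4 or VCD_Low_E2_P4 and 306 without VCD_High_PBDE_E2. With the code of the deposited names as a covariate 24 genes were called, 22 of them among the 143. Within a diet the code differs only at low PBDE, between VCD_Low_PBDE and the hormone libraries. Its covariate thus fits VCD_Low_PBDE by itself, and this alternative is no separate check from leaving that library out. No call turned its direction in any of these fits. *Ctla2a*, *Irf7*, *Bst2*, *Ifi27l2a*, *Ccl7*, *Ccl8*, *Figf*, *Hmcn2*, *Tgfbi* and *Cyp1b1* stayed called in all 18 alternatives run. The other called genes described for this comparison lost their call in 2 to 11 of the 18, among them *Rsad2* in 7, *Col5a2* in 9, *F3* in 10 and *Dcn* in 11; all of them but *Ctgf* and *Klf2* lost it without VCD_Low_PBDE and with the code as a covariate.

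*Ctla2a*, a cysteine protease inhibitor, showed the largest rise among called genes at a mean of 20 CPM or more. It stood at 36.2 CPM in VCD_Vehicle, 15.1 in VCD_Low_PBDE and 14.0 in VCD_High_PBDE. With E2 it stood at 131, 49.5 and 94.6 CPM at no, low and high PBDE, and with E2 and P4 at 1044, 407 and 627 CPM. The log2 fold change was 3.60 ± 0.18 SE (edgeR adjusted p = 7.58e-06). The hormone libraries all lay above those without hormone, and those with P4 lay above those with E2 alone. *Cthrc1*, a secreted protein of collagen remodelling, rose by 3.00 ± 0.39 (edgeR adjusted p = 0.00645) and *Spon1*, a spondin of the matrix, by 1.76 ± 0.33 (edgeR adjusted p = 0.0273).

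*Irf7*, the transcription factor that amplifies type I interferon production, stood at 45.7, 48.1 and 46.5 CPM without hormone. It stood at 434, 297 and 127 CPM with E2 and at 380, 374 and 312 CPM with E2 and P4 at no, low and high PBDE, a log2 fold change of 2.69 ± 0.27 (edgeR adjusted p = 0.00101). *Bst2*, tetherin, which holds budding virus at the cell surface, stood at 390, 247 and 253 CPM without hormone and between 587 and 1223 CPM with it (1.65 ± 0.14, edgeR adjusted p = 0.000274). In both genes the lowest hormone library was VCD_High_PBDE_E2, and the groups did not overlap. *Ifi27l2a*, an interferon-induced gene of high level, ran from 787 to 1508 CPM without hormone and from 1947 to 4064 CPM with it (1.57 ± 0.12, edgeR adjusted p = 0.00027).

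Of 37 interferon-induced genes tested, 20 rose and none fell, with 37 of 37 positive and a median log2 fold change of 1.04 against -0.0045 over all genes. The list was drawn up with earlier results of these libraries known, which include a rise of some of its genes, and is not independent evidence of their direction. Besides the genes above, the antiviral *Rsad2* (viperin) rose by 2.32 ± 0.50 (edgeR adjusted p = 0.0487), *Ifit3b* by 2.01 ± 0.30 and *Ifit3* by 1.83 ± 0.25, and the chemokine *Cxcl10* by 1.63 ± 0.26. Summed over the list, the level was 2259 to 3301 CPM without hormone and 4484 to 8456 CPM with hormone in the Cilp Myoc fibroblasts, and 1801 to 2722 CPM and 2784 to 5166 CPM in the other fibroblasts. Summed immune markers in the chosen cells were 29.2 to 40.9 CPM without hormone and 25.03 to 133 CPM with it. Erythrocyte markers were 9.44 to 19.9 CPM and 27.8 to 1014 CPM, and thus moved with hormone although none of their 4 genes passed the test. The median mitochondrial share of the chosen cells was 2.57% to 3.20% without hormone and 1.92% to 2.43% with it. Immediate early and heat shock genes summed to 29250 to 32640 CPM without hormone and 21450 to 24520 CPM with it, and 20 ribosomal protein genes to 39140 to 40960 and 41190 to 43670 CPM. The hormone and no-hormone libraries thus did not overlap in any of these 3 measures. Their part and that of blood RNA in these results was not tested.

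The promoters of these genes are shown because 20 of the 37 tested rose and none fell. The core of the interferon-stimulated response element was searched on both strands (GAAA, any 2 bases and GAAA, or TTTC, any 2 bases and TTTC) in the 250 bases before each start in the RefSeq promoter table (GRCm38.p6). It was present in 978 of 32851 promoters (2.98%), in 225 of 7084 promoters of genes tested (3.18%), in 15 of 30 interferon-induced genes tested that have an entry (50%) and in 9 of 16 of those that rose (56.3%). A match is a description of letters and not a site of binding. The windows below run 5′ to 3′ on the strand of the gene, with the match in capitals. They were picked as matches, so in either orientation only the 2 middle bases of the element were free to vary. They lie at chr19:34583363-34583392 (+) for *Ifit3*, chr12:26456553-26456582 (-) for *Rsad2*, chr8:71537583-71537612 (-) for *Bst2*, chr5:92349083-92349112 (-) for *Cxcl10* and chr3:142620594-142620623 (+) for *Gbp2*, all upstream of the gene.
Ifit3: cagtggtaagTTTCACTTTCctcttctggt
Rsad2: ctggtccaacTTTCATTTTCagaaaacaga
Bst2: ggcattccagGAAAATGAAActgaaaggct
Cxcl10: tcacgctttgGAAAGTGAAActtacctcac
Gbp2: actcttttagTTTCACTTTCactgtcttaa

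Chemokines had 4 of 16 genes called higher and none lower (median 0.42). *Ccl7*, an attractant of monocytes, stood at 327, 595 and 291 CPM without hormone and at 952, 1221 and 676 CPM with E2 and 1421, 1824 and 1096 CPM with E2 and P4 (log2 fold change 1.58 ± 0.12, edgeR adjusted p = 0.000265). *Ccl8*, another monocyte attractant, ran from 89.1 to 150 CPM without hormone and from 203 to 455 CPM with it (1.24 ± 0.12, edgeR adjusted p = 0.00101). The lowest hormone library lay above the highest library without hormone in both. *Cxcl9*, an interferon gamma target, was called higher (edgeR adjusted p = 0.0093), at most 1.89 CPM without hormone and 21.9 to 63.5 CPM in the hormone libraries at no and low PBDE, but it was at 0 in VCD_High_PBDE_E2 and at 0.941 CPM in VCD_High_PBDE_E2_P4, so its groups overlapped. Its fitted log2 fold change of 4.80 depends on the prior count and is no bound, and the call was lost without VCD_Vehicle (4.04), without VCD_Low_PBDE (8.21), with the code as a covariate (8.09) and with at least 3 UMIs of *Cilp* and *Myoc* (4.48). *Figf* (vascular endothelial growth factor D), a lymphatic growth factor, rose by 1.27 ± 0.15 (edgeR adjusted p = 0.00387).

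*Hmcn2*, one of the genes by which these cells differed most from other fibroblasts, was lower in hormone libraries. It stood at 287, 579 and 417 CPM without hormone, at 71.0, 79.0 and 122 CPM with E2 and at 108, 124 and 136 CPM with E2 and P4, a log2 fold change of -2.01 ± 0.16 (edgeR adjusted p = 0.000274). *Tgfbi* fell from 446 to 630 CPM without hormone to 107 to 275 CPM with it (-1.40 ± 0.16, edgeR adjusted p = 0.00319). *Cyp1b1*, a cytochrome P450 that hydroxylates estradiol, fell from 75.5 to 91.7 CPM to 20.9 to 48.4 CPM (-1.20 ± 0.14, edgeR adjusted p = 0.00375). In these 3 genes no hormone library reached a library without hormone. *Cpxm2* (-1.56 ± 0.28), the retinoic acid hydroxylase *Cyp26b1* (-1.55 ± 0.25), *Bambi*, a TGF-beta pseudoreceptor (-1.36 ± 0.24), and *Clu* (-1.14 ± 0.22) fell as well. The rule rests on *Cilp*, which was also higher outside the rule in most hormone libraries, so different cells can meet it with and without hormone. The part of this in these falls and in the other hormone differences within the chosen cells was not tested.

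Of the genes in the name, *Igfbp3* fell by 0.87 on the log2 scale (-0.87 ± 0.18, edgeR adjusted p = 0.0387), from 730 to 1170 CPM without hormone to 264 to 707 CPM. That call was lost without VCD_Vehicle, VCD_E2_P4, VCD_Low_PBDE, VCD_Low_E2_P4, VCD_High_PBDE or VCD_High_PBDE_E2_P4 and with the code as a covariate, with at least 3 UMIs of *Cilp* and *Myoc* or with the *Pgr* and *Greb1* cells kept, with values of -0.67 to -1.10. *Wisp2* (-0.67 ± 0.19, edgeR adjusted p = 0.119) and *Mfap4* (-0.12 ± 0.36, edgeR adjusted p = 0.919) did not pass. *Ctgf* fell by 1.02 on the log2 scale (-1.02 ± 0.18, edgeR adjusted p = 0.0244) and *F3* by 1.01 (-1.01 ± 0.20, edgeR adjusted p = 0.0357). *Fgf9* had a value of -1.57 ± 0.43 (edgeR adjusted p = 0.108).

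Single genes of the matrix lists were called. Of 18 collagen chains 1 was called higher, *Col5a2* (0.70 ± 0.14, edgeR adjusted p = 0.0342), and of 17 elastic fibre genes 1 was called lower, *Fbln1* (-0.59 ± 0.11, edgeR adjusted p = 0.0271). *Sparc*, a collagen-binding matrix protein, rose by 0.64 ± 0.12 (edgeR adjusted p = 0.0273) and *Dcn* (decorin) fell by 0.43 on the log2 scale (-0.43 ± 0.09, edgeR adjusted p = 0.0419). *Dcn* was the 1 of 9 small leucine-rich proteoglycans tested that was called (median -0.16) and made up most of the summed level of that list. *Dcn* stood at 15020 to 15480 CPM without hormone and at 8880 to 13250 CPM with it, and the list at 19070 to 20630 and 13700 to 18550 CPM, whereas *Lum* (0.28 ± 0.11) and *Ogn* (0.19 ± 0.09) had positive values that did not pass. Immediate early and heat shock genes had 5 of 24 called lower and none higher (median -0.37), among them *Jun* (-0.53 ± 0.09), *Junb* (-0.67 ± 0.13), *Klf2* (-0.83 ± 0.15) and *Zfp36* (-0.63 ± 0.11). Estrogen receptor targets had 1 of 16 called higher, *Ctla2a*, and none lower (median -0.23). The rule had kept out cells with both *Pgr* and *Greb1*, 107 of 169 of them in VCD_Low_E2, and neither gene was tested. This count is thus not independent of the rule, and nothing is read from it. The estrogen receptor gene *Esr1* itself did not pass, with a log2 fold change of -0.01 ± 0.16 (edgeR adjusted p = 0.987). In thinned cells *Esr1* was detected in 25.2% of the Cilp Myoc fibroblasts, 21.8% of other fibroblasts and 5.05% of immune cells.

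**Figure D4:**
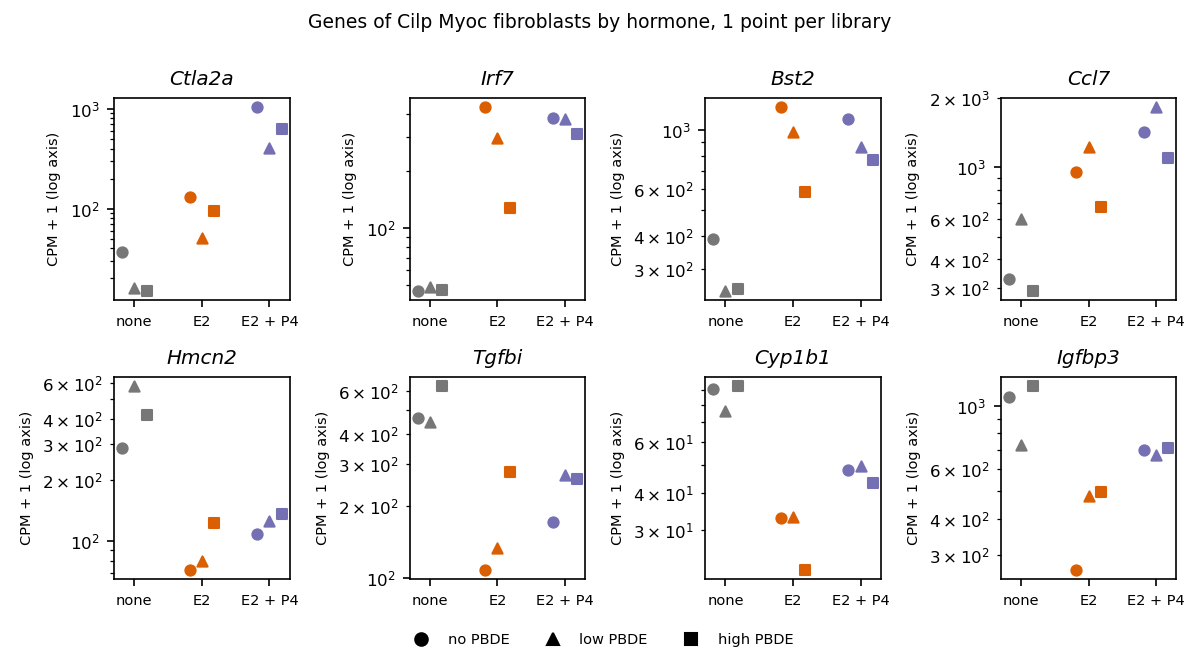
CPM + 1 (log axis) of 8 genes in the Cilp Myoc fibroblasts, with 1 point per library of the layout, by hormone (x axis) and diet (marker shape). *Ctla2a*, *Irf7*, *Bst2* and *Ccl7* are higher and *Hmcn2*, *Tgfbi*, *Cyp1b1* and *Igfbp3* lower in the hormone libraries, and *Ctla2a* is highest with E2 and P4 (407 to 1044 CPM).

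With P4 added to E2, 5 of 9141 genes (0.0547%) were called higher and none lower, with 640 genes at an unadjusted p under 0.05. Besides *Ctla2a* (log2 fold change 3.03 ± 0.15, edgeR adjusted p = 7.2e-06) these were the complement component *C7*, the glucocorticoid-activating enzyme *Hsd11b1*, the sulfotransferase *Sult1a1* and *Serping1*, which were named because so few passed. *C7* stood at 1.08, 1.45 and 0 CPM with E2 and at 26.9, 25.8 and 15.1 CPM with E2 and P4 (4.50 ± 0.41, edgeR adjusted p = 0.00197). *Hsd11b1* stood at 31.1, 41.9 and 27.8 CPM with E2 and at 122, 87.7 and 132 CPM with E2 and P4 (1.76 ± 0.21, edgeR adjusted p = 0.0143). E2 libraries and those with P4 did not overlap in either gene. Without VCD_E2 or without VCD_E2_P4 only 1 gene was called in each case, and without VCD_High_PBDE_E2_P4, VCD_Low_E2_P4 and VCD_High_PBDE_E2 the counts were 2, 3 and 20, and 8 without VCD_Vehicle or VCD_Low_PBDE. *C7* lost its call in 2 of these 9 fits, *Hsd11b1* in 3 and *Sult1a1* and *Serping1* in 5 each, all 4 genes without VCD_E2 and without VCD_E2_P4, whereas *Ctla2a* kept it in each. DESeq2 called 31 genes, including the 3 of the 5 to which it gave an adjusted p (*Ctla2a*, *Hsd11b1* and *Serping1*), and 70 genes were called without the filter on low counts, all 5 among them.

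Few genes were called for the diets. The fit had 4 residual degrees of freedom, so a lack of calls does not show a lack of change. In the layout the libraries without PBDE carry one name code and those on the high diet the other. The high-diet calls thus cannot be told apart from the code. On the low diet edgeR called 1 of 9141 genes (0.0109%), *Ctla2a*, which was lower (-1.40 ± 0.16, edgeR adjusted p = 0.0318), with 210 genes at an unadjusted p under 0.05. The call was lost without VCD_Vehicle, VCD_E2, VCD_E2_P4, VCD_Low_E2, VCD_Low_E2_P4 or VCD_High_PBDE_E2_P4, when the number of genes called was 0 or 1. On the high diet 3 genes (0.0328%) were called, with 982 at an unadjusted p under 0.05. *Cxcl9* was lower (edgeR adjusted p = 0.0301), at most 0.941 CPM in the 3 high libraries, so that no fold is given, and *Trf*, transferrin, higher (1.47 ± 0.19, edgeR adjusted p = 0.0348), at 41.2, 50.1 and 57.4 CPM against 17.3, 13.0 and 23.1 CPM without PBDE. *AY036118* was lower (-2.71 ± 0.29, edgeR adjusted p = 0.0167); it stood at 15.1 to 35.9 CPM in the 3 high libraries and also at 23.0 CPM in VCD_E2_ICI, which carries the same name code and no PBDE. Without VCD_High_PBDE_E2 no gene was called, without VCD_E2_P4 1, without VCD_E2 or VCD_Low_E2_P4 8, without VCD_Low_PBDE 10 and without VCD_High_PBDE 31. Without VCD_High_PBDE_E2_P4 2 genes were called, none of them among the 3. *Trf* lost its call in 6 of the 9 fits that leave out a library (VCD_Vehicle, VCD_E2, VCD_E2_P4, VCD_Low_E2, VCD_High_PBDE_E2 or VCD_High_PBDE_E2_P4), *Cxcl9* in 3 and *AY036118* in 2. DESeq2 called 42 genes, among them *AY036118*, the only one of the 3 to which it gave an adjusted p.

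The hormone effect in Cilp Myoc fibroblasts was compared with that in all other fibroblasts of the same libraries in 1 fit with the difference as its own term. Of 13642 genes, 87 (0.638%) had a more positive log2 fold change in the Cilp Myoc fibroblasts and 70 (0.513%) a more negative one. *Mfap4* was at 361, 186 and 185 CPM without hormone and at 75.3 to 419 CPM with it in the chosen cells, while in other fibroblasts it was at 30.4, 18.2 and 18.2 CPM without hormone and at 70.4 to 161 CPM with it. The log2 fold changes were -0.12 ± 0.36 and 2.08 ± 0.16, and they differed by -2.24 ± 0.26 (edgeR adjusted p = 0.000342). *Mfap4* thus rose in the other fibroblasts, and its change in the chosen cells did not pass. The rule left every *Tnc* cell among the others, and also the cells with *Cilp* but no *Myoc*, with *Mfap4* at 438 CPM. Fibroblasts with at least 2 *Cilp* UMIs made up 6.34% in VCD_Vehicle and in VCD_High_PBDE_E2 and 26.8% in VCD_E2. The part of this selection in the differences between the effects was not tested. *Postn* (periostin), a matrix protein of remodelling stroma, had 1.12 ± 0.30 and 2.12 ± 0.41, with a difference of -1.02 ± 0.15 (edgeR adjusted p = 0.00163). *Col12a1*, *P4ha3*, a prolyl hydroxylase of collagen, *Nxn*, *Matn2* and the imprinted *H19* had differences of -1.13, -1.42, -1.70, -1.36 and -2.82, and each rose in the other fibroblasts.

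The opposite was seen for *Ccl7*, with 1.58 ± 0.12 in the Cilp Myoc fibroblasts and 0.12 ± 0.15 in the others (difference 1.46 ± 0.15, edgeR adjusted p = 0.000246). In the others *Ccl7* did not pass (edgeR adjusted p = 0.599). *Akr1c18*, a hydroxysteroid dehydrogenase that inactivates progesterone, rose by 1.51 ± 0.32 in the chosen cells and fell by 0.36 (-0.36 ± 0.06) in the others, a difference of 1.89 ± 0.28 (edgeR adjusted p = 0.00157). Its level was nevertheless lower in the chosen cells, at 9.44 to 148 CPM against 181 to 328 CPM in the layout. The call of its rise was lost in 10 of the 18 alternatives, among them without VCD_Low_PBDE. On the log2(CPM + 1) scale the rise with E2 was 1.94, 3.49 and 0.923 at no, low and high PBDE. With E2 and P4 it was 0.488, 2.37 and 0.294. *Dmkn*, *Sbsn*, *Itgb7* and *Serpina3c* had differences of 2.08, 1.39, 2.07 and 1.55. Markers of the *Dpp4* population had 7 of 9 called more positive and none more negative (median difference 0.64 against 0.04 over all genes), including *Cd55* (0.88 ± 0.12) and *Anxa3* (0.47 ± 0.08). Wnt ligands and inhibitors had 4 of 25 called more negative and none more positive: *Rspo1*, *Dkk3*, *Sfrp2* and *Sfrp4*. Interferon-induced genes had 4 of 38 called more positive and none more negative (*Cxcl9*, *Psmb8*, *Bst2* and *Ifi27l2a*).

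The makeup of both groups of cells varied between libraries, with ranges that overlapped. *Dpp4* *Pi16* cells were 57.1% to 75.5% of the Cilp Myoc fibroblasts without hormone and 69.1% to 87.9% with it, and 30.3% to 47.0% and 38.8% to 57.7% of the other fibroblasts. Their part in the difference between the effects was not tested; with only the *Dpp4* *Pi16* cells among the Cilp Myoc fibroblasts, an alternative chosen after seeing the data, 86 genes were called for hormone, 72 of them among the 143. The count of differing effects fell to 50 without VCD_Low_PBDE and rose to 291 without VCD_High_PBDE_E2.

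**Figure D5:**
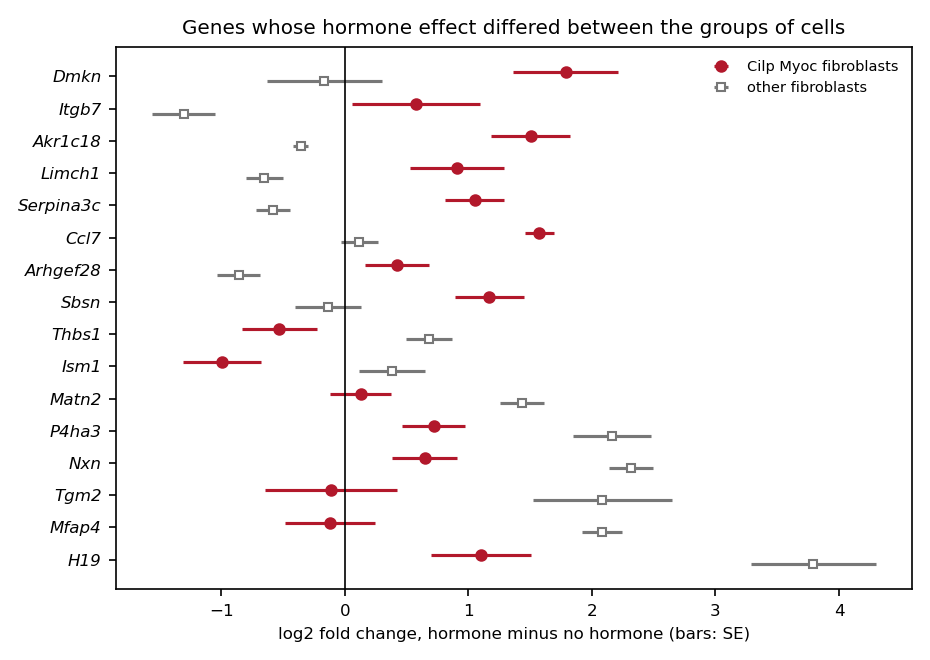
Log2 fold change of hormone against no hormone with SE in the Cilp Myoc fibroblasts (filled circles) and in the other fibroblasts (open squares), for 16 of the genes at a mean of 20 CPM or more with the largest differences between both effects; *Adamts8*, which rests on 1 library, and *Mrgprg*, too low in the chosen cells for a fit of their own, are not drawn. *Mfap4*, *Nxn*, *P4ha3*, *Matn2* and *H19* rose by 1.43 to 3.79 in the other fibroblasts and had values of -0.12 to 1.11 in the Cilp Myoc fibroblasts.

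The 3 groups outside the layout were each set against 1 library, so there is no replicate check and no test, and VCD_Vehicle and VCD_E2 also serve in the comparisons above. Ratios are on the log2(CPM + 1) scale, among genes with at least 100 UMIs over both libraries, with exact 95% Poisson intervals for counting error only. In VCD_E2_ICI against VCD_E2, 287 of 6387 genes (4.49%) were at least 2-fold apart, 105 higher and 182 lower. *Igfbp3* was at 1994 CPM (1920 to 2069) against 264 CPM (251 to 278), *Hmcn2* at 480 against 71.0 CPM, *Fgf9* at 104 against 14.3 CPM and *Cpxm2* at 214 against 17.2 CPM. *Sfrp1*, a secreted Wnt inhibitor, was at 244 against 41.2 CPM. Of 35 interferon-induced genes, 25 were at least 2-fold lower and none had a positive ratio (median -1.37 against -0.05 over all genes). *Irf7*, for example, was at 45.3 CPM, the level of the libraries without hormone. Erythrocyte markers were lower as well, 2 of 2 by at least 2-fold (median -1.67). Of 24 immediate early and heat shock genes 21 had a positive ratio (median 0.57). The part of blood RNA and handling in this pair was not tested. The 2 libraries carry different name codes.

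In Intact against VCD_Vehicle, which share a code, 21 of 3054 genes (0.688%) were at least 2-fold apart, 17 of them higher. *Ccl2*, a monocyte attractant, was at 901 CPM (856 to 948) against 206 CPM (172 to 245), *Ctla2a* at 137 against 36.2 CPM, the prostaglandin synthase *Ptgs2* at 152 against 34.6 CPM, *Prg4* at 110 against 33.1 CPM and the neuropeptide precursor *Tac1* at 75.3 against 7.87 CPM. *Col5a3* was at 186 against 488 CPM and *Cxcl14* at 145 against 320 CPM. In VCD_Vehicle_NormEnv against VCD_Vehicle, whose codes differ, 34 of 2859 genes (1.19%) were at least 2-fold apart. *Tac1* and *Ptgs2* were again among the higher ones, at 78.5 and 151 CPM, so that VCD_Vehicle was the low library in both pairs, and *Mgp* was at 260 against 1072 CPM.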

How the data were processed

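Single-cell 3′ libraries (10x Genomics v3) were processed by the authors with Cell Ranger 3.1.0 against mm10. The deposited matrices hold raw UMI counts per gene and cell, with 27998 genes. Cells with at least 500 genes and 1000 UMIs and at most 5% mitochondrial UMIs were kept, as in the study. No doublet caller was used in the main analysis, and an alternative dropped the 2040 cells (4.41%) with the highest Scrublet scores.

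Counts were summed per library and group of cells and tested with edgeR 4.0.16 (TMM, quasi-likelihood, filterByExpr minimum count 10, Benjamini-Hochberg, threshold 0.05). Groups of cells were compared over 24 sums, each library being its own block (residual degrees of freedom 11). Hormone and diet were fitted additively over 9 sums (residual degrees of freedom 4). With 1 library per combination, p-values measure the spread between libraries that the additive fit leaves. The 13 genes of the rule and mitochondrial genes were not tested. Scripts were tested on simulated counts.

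The cells, gene lists and tests were chosen with earlier results of these data known. Named were the genes of the label and rule, genes the study discusses, the 10 largest changes per direction at 20 CPM or more among genes called, up to 4 genes per list by smallest p and, in library pairs, the 5 most extreme ratios per direction. Rankings by size of change left out rule genes, mitochondrial genes and genes with Gm or Rik names. Between groups of cells they also left out the other genes of the label. DESeq2 1.42.0 (genes it left without an adjusted p stayed out), other filters and rules, and leaving out each library were tried as alternatives. Some genes are not reported here.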

Additional observations from a re-analysis of the deposited data

Results flagged for a closer look

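The share of Cilp Myoc fibroblasts was flagged because hormone libraries moved in opposite directions at different diets: it was higher with E2 and with E2 and P4 at no PBDE (by 7.33 and 5.28 percentage points) and at low PBDE (by 6.04 and 4.03), and lower at high PBDE (by -2.29 and -0.639). This difference was not tested, since each combination holds 1 library. Fibroblasts with at least 2 *Myoc* UMIs made up 34.7% in VCD_High_PBDE and 17.2% in VCD_Vehicle, and the part of this was not tested either.

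A further 18 genes were flagged because their hormone effect differed between Cilp Myoc and other fibroblasts in edgeR's test of the difference. The log2 difference was positive for *Adamts8* (8.05), *Mrgprg* (3.41), *Dmkn* (2.08), *Itgb7* (2.07), *Akr1c18* (1.89), *Limch1* (1.62), *Serpina3c* (1.55), *Ccl7* (1.46), *Arhgef28* (1.42) and *Sbsn* (1.39). It was negative for *H19* (-2.82), *Mfap4* (-2.24), *Tgm2* (-2.21), *Nxn* (-1.70), *P4ha3* (-1.42), *Matn2* (-1.36), *Ism1* (-1.34) and *Thbs1* (-1.17). *Adamts8* stood at 348 CPM in the 33 chosen cells of VCD_High_PBDE_E2 and at 0 to 23.4 CPM in the other 11 libraries, and without that library its difference was 4.04 and was not called.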

How the results depend on the processing

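Counts of called genes between groups of cells stayed within 1.5 times the main count under every alternative run, and the share kept its direction with p above the threshold (exact permutation p = 0.0714 to 0.286). Where a library without hormone was left out, that test could not reach the threshold. No named gene that was called turned its direction. The 143 hormone calls became 344 without the filter on low counts, 376 with *Cilp* and *Myoc* at 1 or more UMIs, 325 with VCD_Vehicle_NormEnv added, 24 with the name code as a covariate, 86 with only *Dpp4* *Pi16* cells, and 22 to 306 leaving out 1 library. For P4 added to E2, the 5 calls became 31 with DESeq2, 70 without the filter, 8 with the looser rule and 1 to 20 leaving out 1 library. For low PBDE, the 1 call became 3 without the filter, 0 with the looser rule and 0 to 1 leaving out 1 library. For high PBDE, the 3 calls became 42 with DESeq2, 87 without the filter, 10 with the looser rule, 8 with VCD_Vehicle_NormEnv added and 0 to 31 leaving out 1 library. The 157 differences between hormone effects became 361 without the filter, 93 among cells of 10000 to 30000 UMIs and 50 to 291 leaving out 1 library. With a pseudocount of 10 CPM, 12 genes for Intact and 170 for VCD_E2_ICI were 2-fold apart. The causes were not tested. The 33 and 35 cells of VCD_High_PBDE_E2 and VCD_Vehicle limit the depth.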
